A study of Mus musculus with 3 samples.

Results

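Short interspersed elements (SINEs) and satellite repeats were read out as 110 consensus sequences among the 1564 repeat sequences, and 50407 reference sequences in all, to which the reads were aligned. They were chosen by name alone: a repeat entry counted when its name held the word SINE or the class tag SAT. By name they fell into 14 B1 sequences, 13 B2 sequences, 74 other SINEs and 9 satellites. Each such consensus is called a row here.

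The RNA came from male mouse embryonic stem cells (ESCs), pluripotent cells kept in culture. The 3 samples were an ATRX knockout clone (genotype ATRX-/-, clone KO1-44), a DAXX knockout clone (genotype DAXX-/-, clone KO2-3) and a wildtype clone (WT26). All were isogenic, of C57BL/6x129sV background, with the knockouts made by CRISPR targeting. The cells were grown with serum and leukaemia inhibitory factor (LIF) and had been passaged off irradiated feeder cells onto gelatin. Polyadenylated RNA was sequenced in 1 library per clone, so no difference below has a replicate check and no test of genotype could be made. Each genotype is also a single clone, so genotype and clone cannot be told apart.

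ATRX remodels chromatin and DAXX escorts histones, and together they deposit the histone variant H3.3 at pericentromeric satellites, telomeres and some retroelements. SINEs are short retroelements that encode no protein. RNA polymerase III transcribes them from an internal promoter made of an A box and a B box, and they are copied with the reverse transcriptase of LINE-1 elements. Mouse B1 derives from the 7SL RNA of the signal recognition particle, and mouse B2 from a transfer RNA. SINE copies also lie inside the introns and untranslated ends of many messenger RNAs, so a SINE read in polyadenylated RNA need not come from polymerase III. The major satellite (GSAT_MM) forms mouse pericentromeres, and the minor satellite (SATMIN) lies at the centromere itself.

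One relative of these elements has a gene of its own and is shown as an example of SINE layout. Bc1, a brain RNA whose head is shared with the rodent ID family of SINEs, lies on the plus strand at chr7:144914470-144914637 (GRCm38, GENCODE M21). Capitals mark the core letters of the polymerase III B box, searched as GGTTCG on both strands.
Bc1: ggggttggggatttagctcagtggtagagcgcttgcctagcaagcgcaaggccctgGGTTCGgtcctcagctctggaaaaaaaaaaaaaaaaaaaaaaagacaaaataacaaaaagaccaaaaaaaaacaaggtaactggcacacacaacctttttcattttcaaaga
The transcript has 168 bases, of which 41.7% are A, and its longest run of A is 23 bases. The B box core lies at bases 57 to 62, with 1 match on the plus strand and 0 on the minus strand. Of 32851 RefSeq promoter windows of 300 bases (GRCm38.p6), 4.72% hold these letters on either strand. The row named for this RNA, BC1_Mm, had 3 reads in the ATRX knockout, 4 in the DAXX knockout and 3 in wildtype. The B1, B2 and satellite consensus sequences themselves were not used here.

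The libraries held 13988376 reads on transcripts in the ATRX knockout, 11224100 in the DAXX knockout and 13981915 in wildtype. Levels below are reads per 1000000 transcript reads (RPM). Repeat rows took 0.776%, 0.991% and 0.703% of the aligned reads in the ATRX knockout, DAXX knockout and wildtype libraries. All 12 ESC markers examined were present in all 3 libraries, with Pou5f1, the core pluripotency factor, at 17781, 15917 and 17316 reads and Zfp42 at 12391, 10138 and 13787. Atrx itself had 1800 reads in the ATRX knockout, against 4582 in wildtype. Daxx had 623 reads in the DAXX knockout, against 1125 in wildtype.

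SINE and satellite rows took 537 reads in the ATRX knockout, 628 in the DAXX knockout and 933 in wildtype. These were 0.491% of all repeat reads in the ATRX knockout (95% exact binomial interval 0.450 to 0.534), 0.559% in the DAXX knockout (0.516 to 0.605) and 0.942% in wildtype (0.883 to 1.004). In RPM they were 38.4, 56.0 and 66.7 in the same order. The other repeat rows had 7780, 9949 and 7016 RPM, so these shares are also lowered by the higher level of other repeats in the knockouts. Intervals here and below cover counting error only, and PCR copies are not independent molecules. Of the 110 rows, 27 had a read in at least 1 library, 20 had reads in every library, and 83 had none. A count of 0 allows up to 3 reads, which is 0.214 RPM in the ATRX knockout, 0.267 in the DAXX knockout and 0.215 in wildtype. Of the 66 other SINEs labelled with a taxon other than mouse or rat, 63 had none. Some of these labels name another rodent, and others name a wider group that includes the mouse. The B3, B4 and MIR rows, older SINE families that the mouse genome also carries, had none either.

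**Figure D1:**
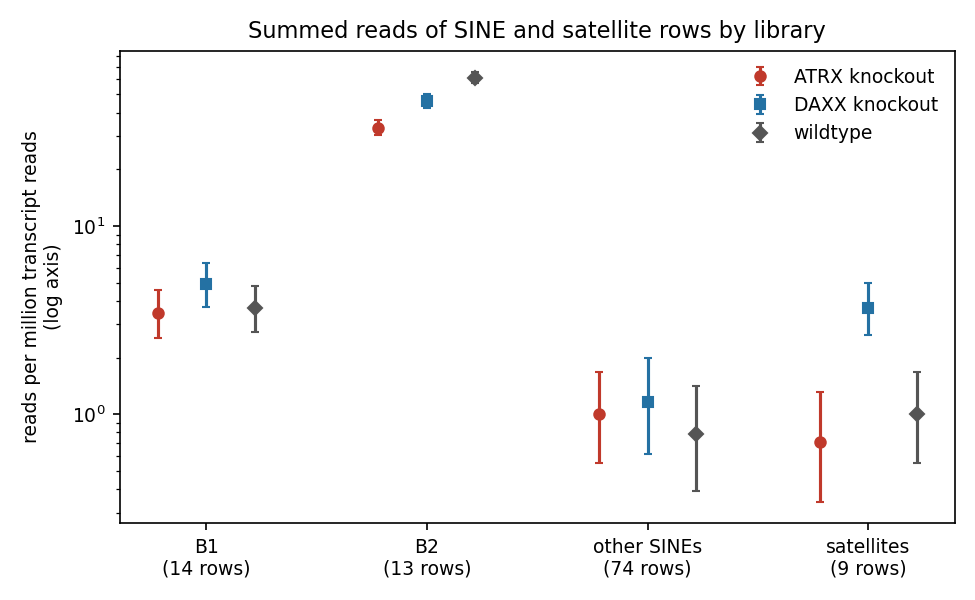
Summed reads of the B1, B2, other SINE and satellite rows in each library, in RPM on a log axis; bars are exact 95% Poisson intervals of 1 library each. B2 stands lowest in the ATRX knockout (33.2) and highest in wildtype (61.3), and satellites are highest in the DAXX knockout (3.65).

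B2 gave most of the reads, and its sum differed between all 3 libraries. Summed over its 13 rows, B2 had 465 reads in the ATRX knockout, 519 in the DAXX knockout and 857 in wildtype. The levels were 33.2 RPM (30.3 to 36.4) in the ATRX knockout, 46.2 RPM (42.3 to 50.4) in the DAXX knockout and 61.3 RPM (57.3 to 65.5) in wildtype. No pair of these intervals overlaps. The ATRX knockout held 54.2% of the wildtype level (48.3% to 60.8%), a log2 fold of -0.88 (-1.05 to -0.72). The DAXX knockout held 75.4% of it (67.5% to 84.2%), a log2 fold of -0.41 (-0.57 to -0.25). Set directly against the DAXX knockout, the ATRX knockout had a log2 fold of -0.48 (-0.66 to -0.29).

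The 7SL-derived SINEs, B1, had far fewer reads, and their folds have wide intervals. Their rows had 48 reads in the ATRX knockout, 55 in the DAXX knockout and 51 in wildtype, or 3.43, 4.90 and 3.65 RPM. The log2 fold was -0.09 (-0.69 to 0.51) in the ATRX knockout against wildtype and 0.43 (-0.15 to 1.005) in the DAXX knockout against wildtype. The ATRX knockout against the DAXX knockout gave -0.51 (-1.10 to 0.07). All of these intervals hold 0. The lower ends of the comparisons with wildtype, -0.69 and -0.15, lie above the B2 folds of -0.88 in the ATRX knockout and -0.41 in the DAXX knockout. A B1 change inside these intervals could not be detected at this depth.

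The share of B2 among B1 and B2 reads does not depend on how libraries are scaled. It was 90.6% in the ATRX knockout (87.8% to 93.02%), 90.4% in the DAXX knockout (87.7% to 92.7%) and 94.4% in wildtype (92.7% to 95.8%). The share is lower in both knockout libraries than in wildtype, though the intervals of both overlap that of wildtype, the one of the DAXX knockout only at its edge. Among all repeat reads, B2 took 0.425% in the ATRX knockout, 0.462% in the DAXX knockout and 0.865% in wildtype. This share also falls with the higher level of other repeats in both knockouts.

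A row was called higher or lower when its whole 95% interval lay beyond 2-fold, among rows with at least 1 RPM in at least 1 of the 2 libraries. Of the B2 rows, 9 reached that level in each comparison. None of them passed the 2-fold rule in either knockout against wildtype. Over all repeat rows tested, 0% were called lower and 5.08% higher in the DAXX knockout, out of 118. In the ATRX knockout 0.885% were called lower and 2.65% higher, out of 113. Among gene symbols, 1.9% were called lower and 0.387% higher in the DAXX knockout, and 1.29% lower and 0.609% higher in the ATRX knockout.

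The B2 rows leaned the same way without passing that rule. In the ATRX knockout against wildtype, all 9 had a log2 fold below 0, with a median of -1.08 and a range of -1.62 to -0.31, and 8 of the 9 intervals lay wholly below 0. Over all 113 repeat rows tested in that comparison, 92 also lay below 0, with a median of -0.59. The median over gene symbols was -0.05. In the DAXX knockout against wildtype, 8 of 9 lay below 0, with a median of -0.35, and 3 intervals lay wholly below 0. With TMM or DESeq2 scaling the interval of 1 of these, B2_Mm1t, held 0 (-0.54 to 0.07 in both), and B2_Rat4, at -0.04 here, lay at 0.06 with TMM and at 0.05 with DESeq2. Over all 118 repeat rows tested in the DAXX knockout against wildtype, 54 lay below 0, with a median of 0.07. The median over gene symbols was -0.08. Intervals wholly below 0 were not counted over all repeat rows. The rows are near copies of each other and can exchange reads, so they are not independent repeats of 1 measurement.

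**Figure D2:**
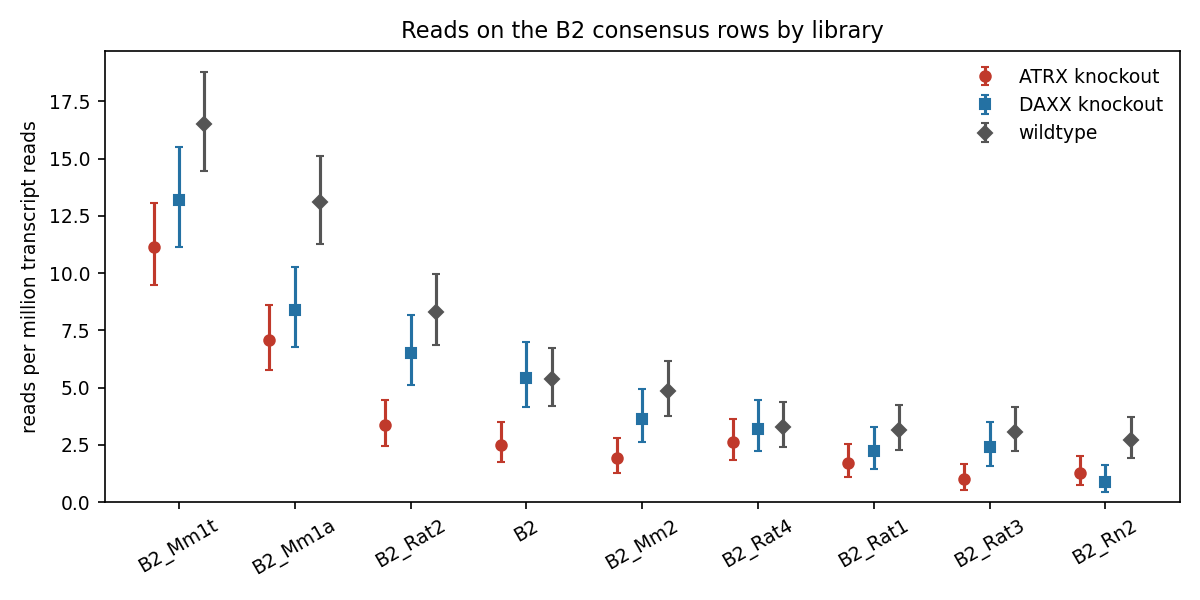
RPM on the 9 B2 rows that reached 1 RPM, ordered by mean level, with exact 95% Poisson intervals of 1 library each. Wildtype is the highest of the 3 libraries in 8 of the 9 rows, and the row named B2 has like levels in the DAXX knockout (5.43) and wildtype (5.36).

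B2_Mm1t, a mouse B2 subfamily and the most abundant row of all SINEs, had 156 reads in the ATRX knockout, 148 in the DAXX knockout and 231 in wildtype. Its log2 fold against wildtype was -0.57 (-0.87 to -0.27) in the ATRX knockout and -0.33 (-0.63 to -0.02) in the DAXX knockout. B2_Mm1a, its sister subfamily, had 99 reads in the ATRX knockout, 94 in the DAXX knockout and 183 in wildtype. Both knockouts are low in it, with log2 folds against wildtype of -0.89 (-1.25 to -0.53) in the ATRX knockout and -0.64 (-1.02 to -0.28) in the DAXX knockout.

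The third mouse subfamily, B2_Mm2, had 27 reads in the ATRX knockout, 41 in the DAXX knockout and 68 in wildtype. Its log2 fold in the ATRX knockout was -1.33 (-2.03 to -0.67), while that in the DAXX knockout, -0.41 (-1.01 to 0.17), holds 0. The row named simply B2, labelled Mus musculus, separated the knockouts from each other. It had 35 reads in the ATRX knockout, 61 in the DAXX knockout and 75 in wildtype. At 2.50, 5.43 and 5.36 RPM, the ATRX knockout alone is low. The log2 fold of the ATRX knockout was -1.12 (-1.76 to -0.50) against the DAXX knockout and -1.10 (-1.72 to -0.50) against wildtype.

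Rat-named B2 sequences also took reads in these mouse libraries. All 8 had at least 1 read, and together they had 148 in the ATRX knockout, 175 in the DAXX knockout and 300 in wildtype. Their summed log2 fold against wildtype was -1.02 (-1.31 to -0.73) in the ATRX knockout and -0.46 (-0.74 to -0.19) in the DAXX knockout. The 4 mouse-labelled B2 rows gave -0.81 (-1.02 to -0.61) in the ATRX knockout and -0.38 (-0.58 to -0.18) in the DAXX knockout, so the intervals of mouse-labelled and rat-labelled rows overlap in each comparison. Mouse-labelled rows took 68.2% of B2 reads in the ATRX knockout (63.7% to 72.4%), 66.3% in the DAXX knockout (62.03% to 70.3%) and 65.0% in wildtype (61.7% to 68.2%).

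Among the rat-named rows, B2_Rat2 was the most abundant, with 47 reads in the ATRX knockout, 73 in the DAXX knockout and 116 in wildtype. Its log2 fold was -1.30 (-1.83 to -0.80) in the ATRX knockout against wildtype and -0.95 (-1.51 to -0.40) in the ATRX knockout against the DAXX knockout. B2_Rat4 is the row that moved least in the ATRX knockout, with 37 reads there, 36 in the DAXX knockout and 46 in wildtype, and all its intervals hold 0. Fewer reads fell on B2_Rat1 (24, 25 and 44), B2_Rat3 (14, 27 and 43) and B2_Rn2 (18, 10 and 38), each in the order ATRX knockout, DAXX knockout and wildtype. Among the B2 rows that reached 1 RPM, B2_Rn2 had the lowest fold in the DAXX knockout, with a log2 value of -1.61 (-2.78 to -0.58) against wildtype. These last values rest on few reads.

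With the limit set at 1.5-fold, 3 member rows were lower in the ATRX knockout against wildtype: B2_Rat2, B2_Mm2 and B2_Rat3. They are 3 of the 9 B2 rows tested, whereas 13.3% of all repeat rows were lower by that limit. In the DAXX knockout 0 B2 rows passed the 1.5-fold limit, and 0% of all repeat rows were lower by it.

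**Figure D3:**
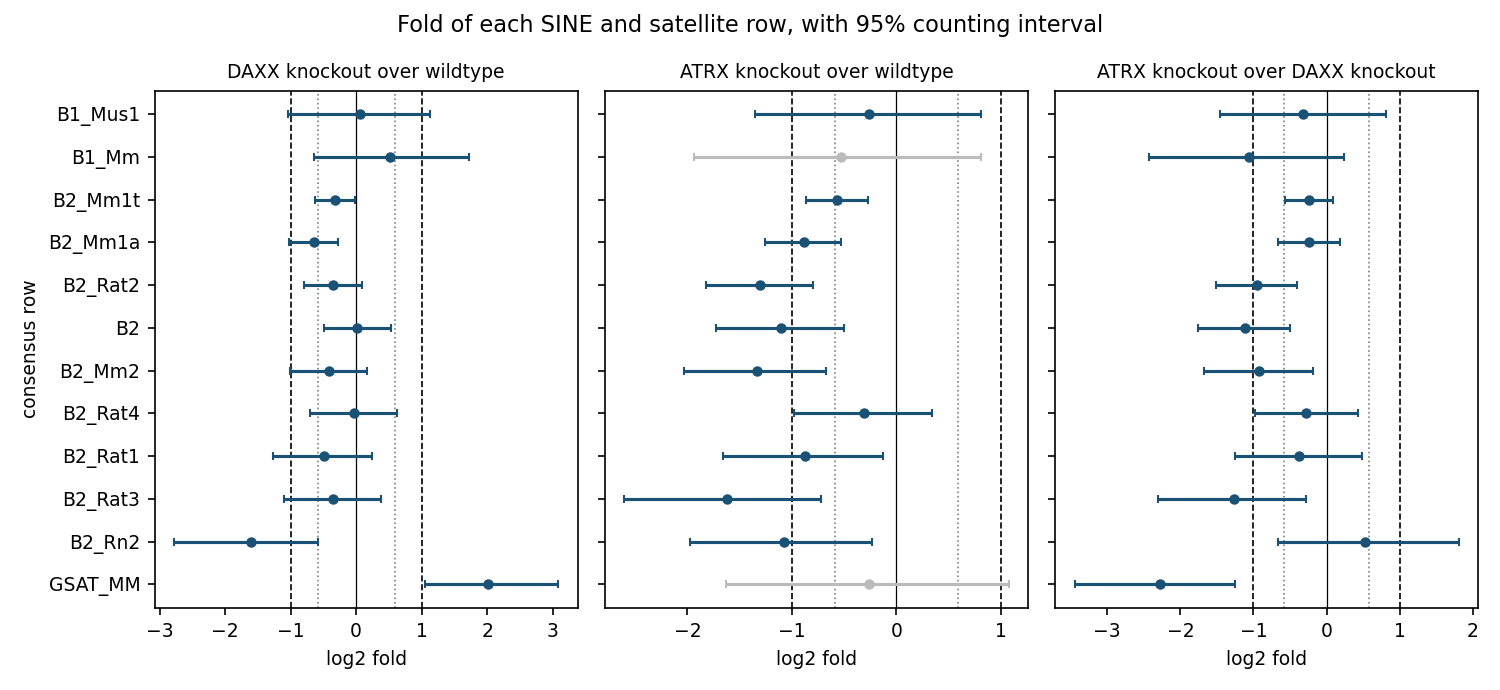
Log2 fold of each SINE or satellite row that reached 1 RPM in at least 1 comparison, with its 95% counting interval, for each pair of libraries. Dashed lines mark 2-fold, dotted lines 1.5-fold, and grey points were below 1 RPM in that comparison; the whole interval of GSAT_MM lies beyond 2-fold in both comparisons that include the DAXX knockout, and that of no B2 row does.

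Per length of consensus, the most abundant B2 row stood well above the most abundant B1 row. In RPM per kilobase of consensus, B2_Mm1t had 57.8 in the ATRX knockout, 68.3 in the DAXX knockout and 85.6 in wildtype. B1_Mus1, the most abundant B1 row, had 7.25, 9.03 and 8.70 on the same scale. Not every B2 row stood above B1_Mus1 in each library: B2_Rn2 had 6.84, 4.74 and 14.5 in the same order. The B1 rows with reads in every library numbered 6, and 8 had none. B1_Mus1 had 15 reads in the ATRX knockout, 15 in the DAXX knockout and 18 in wildtype, and B1_Mm had 9, 15 and 13. The remaining ones, B1_Mus2, the row named B1, B1_Mur4 and B1_Rn, had between 3 and 11 reads in any library. No B1 row passed either limit in any comparison, and the interval of each holds 0.

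Other SINEs were near the limit of detection. Their 74 rows had 14 reads in the ATRX knockout, 13 in the DAXX knockout and 11 in wildtype. The gerbil sequence SINEB2_MU took 8, 6 and 7 of these, and BC1_Mm 3, 4 and 3. BC1_Ma had 1, 2 and 0 reads and BC1_Rn 1, 1 and 0, while ID_Rn1 had its only read in wildtype and PB1, an early relative of B1, its only read in the ATRX knockout. The summed log2 fold against wildtype was 0.35 (-0.90 to 1.63) in the ATRX knockout and 0.56 (-0.72 to 1.86) in the DAXX knockout. These intervals are too wide to show a change of 2-fold.

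Satellites gave the only SINE or satellite row that passed the 2-fold rule. Over all 118 repeat rows tested in the DAXX knockout against wildtype, 6 were called higher, or 5.08%. The 9 rows summed to 10 reads in the ATRX knockout, 41 in the DAXX knockout and 14 in wildtype. The DAXX knockout sum stood 1.87 above wildtype on the log2 scale (0.96 to 2.86), and the ATRX knockout sum was at -0.49 (-1.82 to 0.79). GSAT_MM, the major satellite, had 10 reads in the ATRX knockout, 39 in the DAXX knockout and 12 in wildtype. These are 0.715 RPM (0.343 to 1.31), 3.47 RPM (2.47 to 4.75) and 0.858 RPM (0.443 to 1.499), so the DAXX knockout stands above both others with no overlap of intervals. In the DAXX knockout it rose by 2.02 on the log2 scale (1.05 to 3.09) against wildtype. That was the third highest fold among the 118 repeat rows tested. The ATRX knockout was at -2.28 (-3.45 to -1.25) against the DAXX knockout, the lowest of 108 rows, where 1.85% of repeat rows were called lower. Against wildtype, the ATRX knockout was at -0.26 (-1.63 to 1.07), which holds 0. The row was under 1 RPM in both the ATRX knockout and wildtype, so it was tested only through its level in the DAXX knockout. Its ranks therefore add no support to the fold itself. The satellite difference rests on these few reads of the DAXX knockout library.

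The minor satellite SATMIN had 0 reads in the ATRX knockout, 0 in the DAXX knockout and 1 in wildtype. SQR1_MM had 0, 2 and 1. No fold is given for either, since no library exceeded 3 reads. The other 6 satellite rows, among them 2 labelled Mus musculus (SQR2_MM and SQR4_MM), had no read. The satellite values speak only of polyadenylated transcripts.

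A further 11 rows carry the class name Satellite, written out in full, and were not chosen by the rule. Of these, MMSAT4 and ZP3AR had more than 3 reads in a library. Both had fewer reads per 1000000 in the 2 knockouts than in wildtype, and they are described because this was seen in the data first. MMSAT4, a mouse satellite, had 103 reads in the ATRX knockout, 86 in the DAXX knockout and 164 in wildtype. Its log2 fold was -0.67 (-1.04 to -0.31) in the ATRX knockout and -0.61 (-1.01 to -0.23) in the DAXX knockout, both against wildtype. ZP3AR, a satellite labelled Muridae, had 3, 8 and 17 reads, with a log2 fold of -2.50 (-4.92 to -0.71) in the ATRX knockout against wildtype. With all 11 added, the satellite sum in the DAXX knockout was at -0.19 (-0.52 to 0.13) against wildtype. The 11 rows had 110, 98 and 184 reads in the order above, most of them on MMSAT4. That sum therefore mainly sets GSAT_MM against MMSAT4 and cannot speak for satellite rows as a whole. The higher level in the DAXX knockout was seen in GSAT_MM and not in MMSAT4 or ZP3AR.

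**Figure D4:**
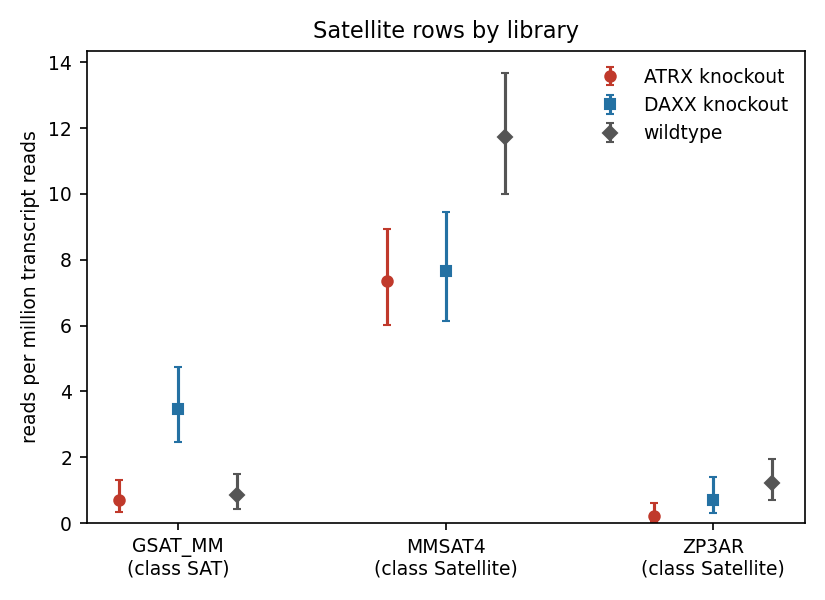
RPM on the major satellite GSAT_MM and on MMSAT4 and ZP3AR, which lie outside the name rule, with exact 95% Poisson intervals of 1 library each. GSAT_MM is highest in the DAXX knockout (3.47), while MMSAT4 and ZP3AR are highest in wildtype (11.7 and 1.22).

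LINE-1 was lower in the ATRX knockout, as B2 was, but not in the DAXX knockout. LINE-1 rows, whose enzymes copy SINEs, had 1262 RPM in the ATRX knockout, 2235 in the DAXX knockout and 1885 in wildtype. Their log2 folds against wildtype were -0.58 (-0.61 to -0.55) in the ATRX knockout and 0.25 (0.22 to 0.27) in the DAXX knockout. In the DAXX knockout the intervals of LINE-1 and B2 lie on opposite sides of 0. Endogenous retrovirus rows gave 0.41 (0.39 to 0.43) in the ATRX knockout and 0.75 (0.73 to 0.77) in the DAXX knockout. B2 as a share of B2 and LINE-1 reads, free of library scaling, was 2.57% in the ATRX knockout (2.34% to 2.81%), 2.03% in the DAXX knockout (1.86% to 2.21%) and 3.15% in wildtype (2.95% to 3.36%).

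Few genes that act on these repeats passed the 2-fold rule. Of 22 polymerase III subunits and factors tested, 0 passed the 2-fold rule in either direction in the ATRX knockout or the DAXX knockout, with median log2 folds of -0.07 and -0.13. Of the 22, 16 lay below 0 in the ATRX knockout and 17 in the DAXX knockout. The medians over all gene symbols were -0.05 and -0.08. Gtf3c1, the largest subunit of TFIIIC, the factor that binds the B box, was at 0.24 (0.16 to 0.32) in the ATRX knockout and -0.04 (-0.13 to 0.04) in the DAXX knockout. Gtf3c3, another TFIIIC subunit, was at 0.09 (-0.01 to 0.18) and -0.02 (-0.12 to 0.08) in the same order. The 9 genes of SINE RNA binding and processing had medians of -0.15 and -0.11 with 0 past the rule. There the RNA helicases Ddx5 and Dhx9 were at -0.24 (-0.27 to -0.21) and -0.09 (-0.14 to -0.05) in the ATRX knockout. Of the 7 genes for chromatin factors reported at SINEs, 0 passed, with medians of 0.04 in both knockouts. Chd4, a remodeller that acts with ADNP at B2 copies, was at 0.04 (0.00 to 0.08) in the ATRX knockout and -0.01 (-0.06 to 0.03) in the DAXX knockout, and the demethylase gene Kdm1a at 0.08 (0.02 to 0.13) and -0.09 (-0.15 to -0.03).

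Among 21 pericentromeric heterochromatin genes, 2 passed the 2-fold rule as lower in the ATRX knockout and 0 in the DAXX knockout. The medians were -0.16 and 0.02. Over all gene symbols tested, 1.29% were called lower in the ATRX knockout and 1.9% in the DAXX knockout. The 2 genes were Atrx, the gene targeted in that clone, with a log2 fold of -1.35 (-1.43 to -1.27), and Dnmt3b, which methylates satellite DNA. Dnmt3b had 606 reads in the ATRX knockout, 922 in the DAXX knockout and 1347 in wildtype, and fell by 1.15 in the ATRX knockout (-1.29 to -1.01). It was at -0.23 (-0.35 to -0.11) in the DAXX knockout. With TMM scaling it no longer passed in the ATRX knockout, which left 1 gene. Trim28, a corepressor of retroelements, was at -0.44 (-0.46 to -0.41) in the ATRX knockout and -0.04 (-0.07 to -0.02) in the DAXX knockout. The 2 H3.3 genes went opposite ways. H3f3a was at 0.13 (0.09 to 0.16) in the ATRX knockout and 0.10 (0.06 to 0.13) in the DAXX knockout. H3f3b was at -0.44 (-0.48 to -0.40) and -0.46 (-0.50 to -0.42) in the same order. Daxx was at -0.21 (-0.34 to -0.09) in the ATRX knockout and -0.54 (-0.68 to -0.39) in the DAXX knockout. The 9 centromere genes had medians of 0.18 and 0.09 with 0 past the rule. Hjurp, the chaperone of the centromeric histone, was at 0.25 (0.19 to 0.31) in the ATRX knockout and 0.15 (0.08 to 0.21) in the DAXX knockout.

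Markers of other cells passed the 2-fold rule as lower in the DAXX knockout, and a few of them in the ATRX knockout. All 9 primitive endoderm markers tested (Gata4, Gata6, Sox17, Pdgfra, Dab2, Col4a1, Col4a2, Lama1 and Sparc) passed it in the DAXX knockout. Only Dab2 and Lama1, 2 of the 9, fell in the ATRX knockout. The list summed to 358 RPM in the ATRX knockout, 211 in the DAXX knockout and 632 in wildtype, with Sox17 among 2 members at 0 in the DAXX knockout. Of the feeder fibroblast markers, 5 of 6 tested passed as lower in the DAXX knockout (Col1a1, Col1a2, Thy1, Acta2 and Tagln), and 1 of 7, Acta2, in the ATRX knockout. Of those 7, 6 lay below 0 in the ATRX knockout, with a median of -1.24. With TMM scaling Thy1 no longer passed, which left 4 in the DAXX knockout. The 12 fibroblast genes summed to 63.6 RPM in the ATRX knockout, 49.9 in the DAXX knockout and 90.3 in wildtype, with 4, 5 and 1 of them at 0. Vim alone had 49.0, 42.0 and 60.0 RPM in that order, so these sums mainly follow Vim. Its log2 fold against wildtype was -0.29 (-0.44 to -0.14) in the ATRX knockout and -0.52 (-0.68 to -0.35) in the DAXX knockout, which did not pass the rule. In these bulk cultures fewer cells of a type and less RNA per cell cannot be told apart. The summed endoderm markers, the summed fibroblast markers and B2 were all lower in both knockouts than in wildtype. Both marker sums were lowest in the DAXX knockout, and B2 was lowest in the ATRX knockout. Any part of these cell types in the B2 values was not tested.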

How the data were processed

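Read counts, as deposited and not normalised, were used for 3 libraries of polyadenylated RNA, with 1 library per genotype. The authors deposited 1 table per library listing each reference sequence, its length and its aligned read count. Bowtie 1.1.2, SAMtools and the build GRCm38.p4 are named, per the submitters' processing notes. Alignment settings, the placement of reads that match several sequences and the use of strand are not given in the sources used here. Reads shared by near-identical rows may therefore be divided among them, and class sums are firmer than single rows.

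Counts were divided by the transcript-row total of each library. Transcripts of a gene were summed to 24006 symbols. Folds carry exact conditional binomial (Clopper-Pearson) 95% intervals (SciPy 1.17.1, Python 3.11.15), and levels exact Poisson intervals. The rule of size was checked on simulated counts of gene symbols that held counting error only. Differences between clones, repeat rows and shared reads were not simulated. Alternatives were scaling by all aligned reads, by edgeR 4.0.16 TMM or by DESeq2 1.42.0 size factors (R 4.3.3), other class limits, no filter and a 1.5-fold limit.

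The members, gene lists and naming rule were chosen with earlier results of these data known. Named were satellite rows with a read, the 6 most abundant rows of each SINE class, rows and listed genes past the rule, the 2 most abundant genes of each list, Atrx and Daxx. B2_Rat1, B2_Rat3, B2_Rn2, MMSAT4, ZP3AR and the gene H3f3b were added after their values were seen. Gtf3c2 was not matched among the 23 polymerase III genes listed. One gene that the naming rule takes is not reported here.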

Additional observations from a re-analysis of the deposited data

How the results depend on the processing

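Scaling moved folds by at most 0.09 on the log2 scale and changed no 2-fold call of a SINE or satellite row. Under the other scalings the B2 sum stayed between -0.88 and -0.81 in the ATRX knockout against wildtype, and between -0.41 and -0.31 in the DAXX knockout against wildtype. Without GSAT_MM the satellite log2 fold in the DAXX knockout against wildtype was 0.32 (-3.47 to 4.10), from 2 reads against 2. With the rows of class Satellite added, a choice made after the data were seen, it was -0.19, and the ATRX knockout stood at -0.53 against the DAXX knockout and at -0.72 (-1.06 to -0.39) against wildtype, an interval that no longer holds 0. With the 1.5-fold limit, 3 member rows were lower in the ATRX knockout against wildtype, against 0 at 2-fold. TMM left 1 pericentromeric gene past the 2-fold rule as lower in that comparison, against 2. It left 4 fibroblast markers past it in the DAXX knockout, against 5. Of the values of class sums and counts, 137 stayed inside their limits and 5 moved, while 114 values of single rows stayed. A fold stayed when it lay inside its main interval, and a count when it changed by no more than 1.5-fold. The 4 fibroblast markers and the satellite value of -0.72 are among the 137. Most intervals are wide beside the shifts from scaling, so staying inside them is a weak check. Leaving out a replicate was not possible with 1 library per genotype. No paired analysis was possible because each genotype has 1 library. Depth limits B1, the other SINEs and the satellites, whose sums held 10 to 55 reads per library.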
